A study of Caenorhabditis elegans with 59 samples.

Results

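Small RNAs of Caenorhabditis elegans that lack the Piwi protein PRG-1 were compared with and without a pair of mutator helicases. The comparison used 6 of the 59 samples of the series, 3 libraries of a triple mutant and 3 of a prg-1 mutant, chosen by their labelled genotype among the 11 small RNA libraries of generation 1. The triple mutant, strain GR2070, carried prg-1(n4357) on chromosome I together with the alleles mut-14(mg464) and smut-1(tm1301) on chromosome V. The prg-1 mutant was strain SX922 with prg-1(n4357) alone, so both groups carried the same prg-1 allele and differed in mut-14 and smut-1. Beside them stand 2 libraries of the mut-14 smut-1 strain GR1948 and 3 of the wild-type strain N2. GR1948 had both helicase alleles of the triple mutant, wild-type prg-1, and also unc-119(ed3) III, an allele that the labels give for none of the other 3 strains. All were whole gravid adults 72 h old, grown at 20 °C on E. coli OP50. Each genotype was 1 strain. The labels do not say whether the 3 libraries of a genotype came from separate cultures, so p-values measure the spread between libraries, which may be technical.

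C. elegans piRNAs guide PRG-1 to transcripts in the germline, and the recognised transcript becomes a template for RNA-dependent RNA polymerases. Their products, the 22G-RNAs, are secondary small RNAs that begin with G and are bound by worm-specific Argonautes (WAGOs) or by CSR-1. WAGO-bound 22G-RNAs are made in the mutator compartment of germ granules, where the DEAD-box helicases MUT-14 and SMUT-1 act redundantly, and they are known for silencing. CSR-1 22G-RNAs target most genes expressed in the germline and do not need the mutator compartment. The comparison asks which of the small RNAs that remain, or that arise, in animals without PRG-1 need the 2 helicases.

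The files gave small RNAs of 16 to 30 nt, treated with polyphosphatase so that 22G-RNAs could be captured, as normalised reads per gene. The triple libraries held 760735, 361305 and 243483 counted reads, against 1376471, 1805412 and 1633564 in the prg-1 libraries, so no read in a triple library still allows up to 3 reads, a mean of 4.08 normalised reads over the 3 libraries, for counting error only. The mutations were visible in the mRNA of the same genotypes. mut-14 mRNA averaged 39.2 ± 7.3 normalised reads in triple and 1447 ± 40.4 in prg-1 animals (SD, n = 3 each), and smut-1 mRNA averaged 250.0 ± 27.6 in triple and 1331 ± 23.8 in prg-1 animals. prg-1 mRNA averaged 2708 ± 107 in triple and 3905 ± 81.4 in prg-1 animals, both far under the 10339 ± 315 of wild type.

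Replicate 3 of the triple mutant, the shallowest of its group, stood apart. At 562 genes whose small RNAs fell by 5 or more on the log2 scale in the prg-1(tm872) libraries described further on, it held 1.48% of the wild-type sum, against 0.235% and 0.239% in the other 2 triple libraries, and the prg-1 libraries held 14.7% to 15.8%. At 87 genes that rose by as much in prg-1(tm872), the 3 triple libraries were alike, at 0.702% to 0.755% of the prg-1 sum. Among the mut-14 smut-1 libraries, replicate 1 was the higher at these 87 genes, with 1.08% against 0.505% in replicate 2. What set these libraries apart was not tested.

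The libraries with and without the helicases were made up differently. In a table of the generation 50 libraries the authors had placed genes in named classes (mut, csr, alg, ergo, histone), which can overlap. How the classes were drawn is not given in the sources used here, so their direction here is not independent evidence. Genes of the mut class took 3.45%, 3.28% and 4.93% of the counted total in the triple libraries, against 47.8%, 48.8% and 48.2% in the prg-1 libraries. The csr class took 83.5%, 84.0% and 82.1% in triple, against 30.7%, 29.2% and 30.1% in prg-1. The groups did not overlap in either class, and each exact permutation test (two-sided) gave p = 0.1, the smallest that 3 against 3 libraries allow. Without triple replicate 3 the mut class averaged 3.36% in triple. In mut-14 smut-1 animals, which have PRG-1, the mut class took 5.05% ± 0.59 and the csr class 81.8% ± 0.66 (SD, n = 2), while wild type had 59.5% ± 0.387 and 29.3% ± 0.388 (n = 3).

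**Figure D1:**
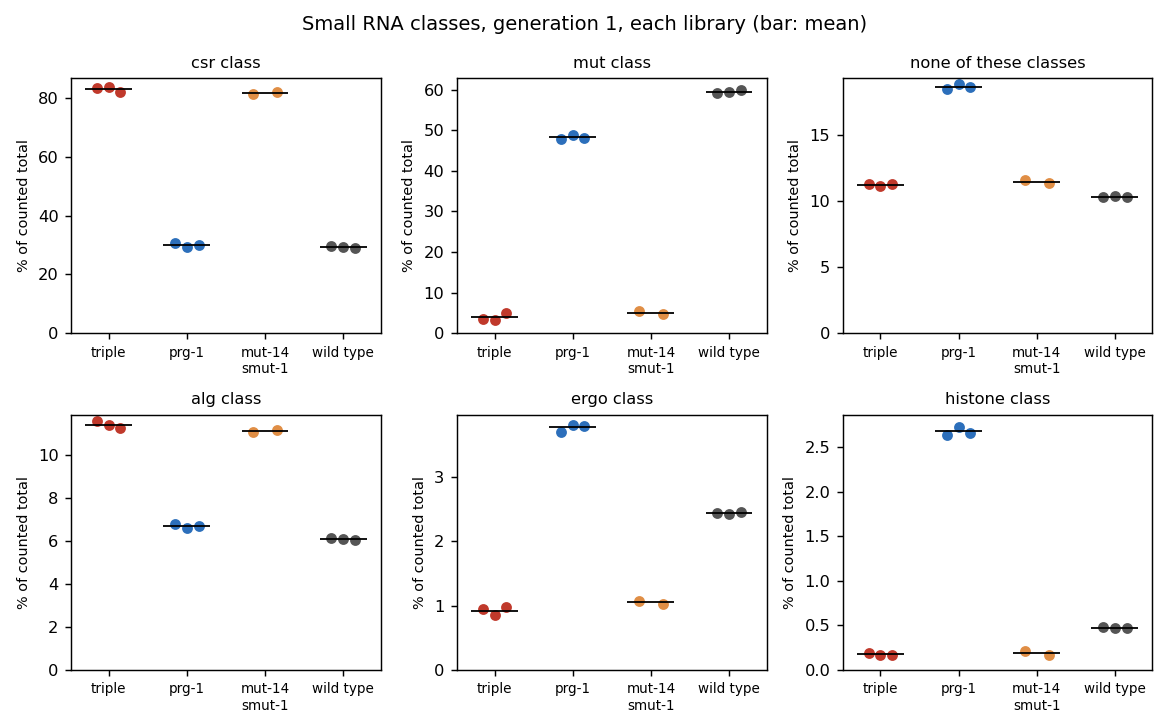
Share of the counted total (%, each y axis from 0) taken by each authors' class in every generation 1 library, with the mean as a bar. The triple libraries (left) sit beside prg-1, and the mut-14 smut-1 libraries beside wild type: the mut class lies at 3.28% to 5.47% in the libraries without the helicases and at 47.8% to 60.0% in the others.

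Smaller classes also differed in share. The histone class took 0.172% ± 0.0117 of the total in triple, against 2.68% ± 0.0496 in prg-1, and the ergo class 0.923% ± 0.0651, against 3.78% ± 0.0616 (SD, n = 3 each, exact p = 0.1 for both). The alg class took 11.4% ± 0.143 in triple and 6.71% ± 0.105 in prg-1, although its summed level was 56900 ± 663 normalised reads in triple and 108000 ± 2210 in prg-1. Genes in none of these classes took 11.3% ± 0.0658 in triple and 18.7% ± 0.23 in prg-1. Shares add up to a whole, so a share can grow without any gain in molecules.

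Whether the remaining small RNAs rose depends on how libraries are scaled. The deposited values scale each library by a factor of its own. Median-ratio factors computed on them were 0.9974 to 1.0036 in the generation 1 small RNA libraries. The scale is thus close to a median-ratio scale, which takes the typical gene as unchanged. The deposited values sum to 497413 ± 4659 in triple and 1617370 ± 57594 in prg-1 libraries (SD, n = 3 each). On these values 7418 genes were tested (limma, Benjamini-Hochberg adjusted p under 0.05), of which 1748 were lower in triple (23.6%) and 767 higher (10.3%), with a median log2 change of -0.09. When each library was scaled to its total instead, the median log2 change over all genes was 1.46, with 1130 lower (15.2%) and 4784 higher (64.5%). Of the 1748, 1127 were lower under both scalings, 368 were not called and 253 were called higher. Changes of 2-fold or more made up 1509 of the 1748 decreases and 96 of the 767 increases. Thinning every library to 224056 reads, an alternative added after seeing the data, gave 1116 lower (15%) and 316 higher (4.26%), of which 1097 and 233 were also called so without thinning. Without triple replicate 3, 1824 were lower and 663 higher. Changes below are on the deposited scale unless another is named, and each is best read against the median of all genes.

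Small RNAs of the csr class stayed near their prg-1 level on the deposited scale. Of 3352 tested, 3191 (95.2%) lay within 2-fold between triple and prg-1. The median log2 change was 0.11, or 1.77 with library totals. This class made up a large part of the 7418 genes tested, so its median near 0 follows in part from the deposited scale. Their summed level was 414000 ± 1030 normalised reads in triple and 485000 ± 5280 in prg-1 (SD, n = 3 each). With the deposited scaling 613 were higher and 246 lower, with library totals 3202 and 32, and after thinning 221 and 98. Of the 10 genes with the most small RNA in triple, 9 were of the csr class. snrp-200, a spliceosome helicase, had 3211, 3200 and 3078 normalised reads in triple, against 2542, 2409 and 2540 in prg-1. The groups did not overlap, but the difference was small (log2 change 0.34 ± 0.0376 SE, adjusted p 2.85e-05). The same held for cls-2, a microtubule-binding CLASP protein (0.29), klp-18, a kinesin of the meiotic spindle (0.48), set-9, a SET-domain gene (0.42), hum-2, a class V myosin (0.26), and top-2, topoisomerase II (0.40). klp-7, the kinesin-13 of the spindle (0.11), scc-1, a cohesin subunit (0.07), maph-1.3 (0.02) and maph-1.2 (-0.04) were not called, although klp-7 was without triple replicate 3 (0.16, limma adjusted p 0.0321).

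**Figure D2:**
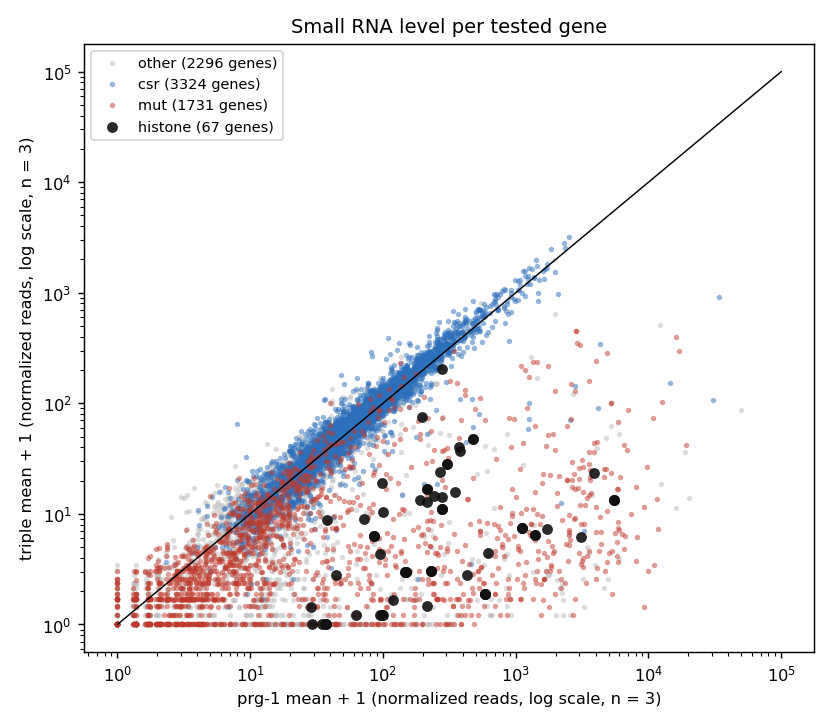
Mean small RNA level of each of the 7418 tested genes in triple (y) against prg-1 (x), in normalised reads plus 1 on log axes, with the line of equality. Genes of the csr class (blue) follow the line, while many mut genes (red) and the histone genes (black) fall below it. A gene of several classes is drawn as histone before mut before csr.

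The most abundant small RNAs of prg-1 animals were nearly absent from triple. The 100 genes with the highest mean in prg-1 had at least 3250 normalised reads there and a median log2 change of -9.19, with all 100 called lower in triple. They were chosen by the group in which they were high, so these values describe the list and are no test of it. The 100 genes with the highest mean in triple had at least 571 normalised reads there, with 53 called higher in triple, 16 lower and a median of 0.19. Of the 100 highest in prg-1, 73 were of the mut class, and of the 100 highest in triple 95 were of the csr class. Only 1 gene was in both lists of 100. The 10 highest in prg-1 took 14.6% ± 0.285 of the prg-1 libraries, and 0.411% ± 0.00765 of the triple libraries.

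sea-2, a regulator of the count of X chromosomes, led the prg-1 libraries. It had 100, 95.7 and 61.9 normalised reads in triple, against 47090, 52597 and 49730 in prg-1. The triple mean was 0.173% of the prg-1 mean, and wild type, with 144 to 163, was also low (log2 change triple minus prg-1 -9.19 ± 0.316 SE, adjusted p 3.13e-09). ceh-44, a homeobox gene, averaged 106 ± 13.5 in triple, against 30741 ± 1615 in prg-1 and 49.1 to 60.7 in wild type. alh-7, an aldehyde dehydrogenase gene, had 13.0, 17.8 and 8.26 in triple, against 18962, 21491 and 20309 in prg-1 and 14 to 25.4 in wild type. At all 3 genes both triple and wild type were low and prg-1 stood far above them. nex-2, an annexin gene, lsy-12, a histone acetyltransferase gene, and Y23H5A.2 averaged 10.4, 152 and 35.3 in triple, 16047, 14598 and 18725 in prg-1, and 6.59, 173 and 84.0 in wild type.

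inos-1, an inositol-phosphate synthase gene, kept more. It had 934, 932 and 855 normalised reads in triple, against 32199, 35682 and 33889 in prg-1, and 494 to 539 in wild type. The triple libraries were far under prg-1 and above wild type. inos-1, ceh-44 and lsy-12 are of the csr class, so the 22 genes of that class (0.656%) left with under 10% of their prg-1 level included some of the largest losses in absolute reads. lin-65, a heterochromatin factor gene of the same class, averaged 143 ± 18.1 in triple, against 2793 ± 176 in prg-1 and a mean of 160 in wild type.

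Other abundant targets were already abundant in wild type. F15D4.5 had 358, 369 and 460 normalised reads in triple, against 15328, 16884 and 16501 in prg-1 and 6217 to 6703 in wild type. sqst-1, which encodes the autophagy receptor p62, had 3.91, 9.57 and 109 in triple, against 18215, 20156 and 18961 in prg-1 and 7776 to 7904 in wild type. Replicate 3 alone carried most of what was left of sqst-1, and the log2 change was -10.06 with it and -11.37 without it. Y20F4.4 and frm-1, a FERM-domain gene, averaged 299 and 102 in triple, against 16991 and 12736 in prg-1 and 1434 and 2550 in wild type.

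**Figure D3:**
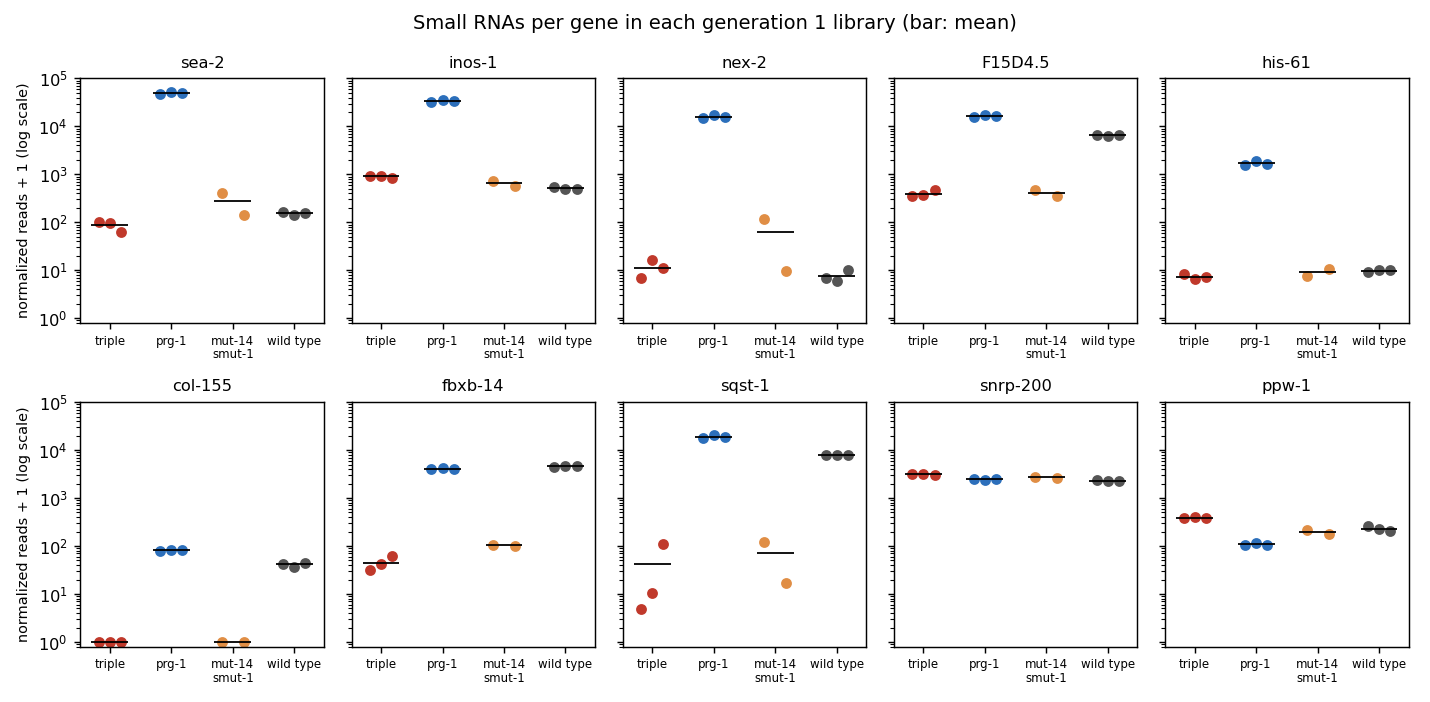
Normalised small RNA reads plus 1 (log axis) of 10 genes in every generation 1 library, with the mean as a bar. In 8 of them the triple libraries (left) fall far below prg-1. snrp-200 is nearly level in all genotypes, ppw-1 is highest in triple, and triple replicate 3 is the high point at sqst-1.

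The largest decreases, among genes with a mean of at least 100 normalised reads, went down to a few reads in total. Y53G8AM.8 had 1.3, 0 and 0 normalised reads in triple, from 2 reads in all, against 8624, 10170 and 9167 in prg-1. With reads pooled over the libraries of each group and put on the deposited scale, prg-1 was 12900 times higher. The 95% counting interval was 3570 to 106000, and the ratio of the group means was 21500. dmd-9, a DM-domain gene, and nssp-7 each had 1 read over the 3 triple libraries, against 8077 and 7589 reads in prg-1. The same list held C53D5.5, W05F2.4, rimb-1, which encodes a synaptic scaffold protein, pho-9, an acid phosphatase gene, mif-1, a macrophage migration inhibitory factor homologue, T28B8.1, and crtc-1, a transcriptional coactivator of CREB. Each had between 2 and 8 reads in triple and at least 9752 in prg-1. Fitted log2 changes of the 10 ran from -11.07 to -12.78 and depend on the pseudocount of 1. In wild type these genes had between 3.56 (nssp-7) and 315 (Y53G8AM.8) normalised reads on average.

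Core histone genes were lower throughout. All 64 in the table were tested and all 64 were lower in triple, also with library totals and after thinning, and in all 64 the 3 triple libraries lay under the 3 prg-1 libraries (26.9% of all tested genes did so). The median log2 change was -5.63, or -4.19 with library totals. Over the 64 genes the median of the means was 5.37 normalised reads in triple and 229 in prg-1. The same median was 6.1 in mut-14 smut-1, against 11.4 in wild type. Many copies share sequence, and the 64 genes show 41 distinct sets of values, so they are not 64 separate measurements. his-61 had 7.17, 5.47 and 6.19 normalised reads in triple, against 1590, 1890 and 1644 in prg-1 and 8.21 to 9.11 in wild type. Triple and wild type were both far under prg-1 (log2 change triple minus prg-1 -7.88 ± 0.168 SE, adjusted p 1.36e-10). his-30 behaved alike, with 5.86, 4.1 and 6.19 in triple and 1289, 1488 and 1374 in prg-1 (log2 change -7.77).

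Genes between the histones were lower too. In the order of the reference annotation, the longest run of consecutive tested genes called lower held 27 genes, 14 of them histones, and the next held 14 genes, 13 of them histones. In the longer run W09B7.1 and F07B7.1 had identical values, as did W09B7.2 and F07B7.2, so reads of these copies cannot be told apart. F07B7.1 had 15.6, 17.8 and 24.8 normalised reads in triple, against 2381, 2570 and 2404 in prg-1 and 718 to 735 in wild type. F07B7.2 had 115, 95.7 and 88.8 in triple, against 5005, 5328 and 5198 in prg-1 and 316 to 378 in wild type. ZC190.8 and EGAP798.1, also in the run, averaged 4.05 and 0.217 in triple, and 804 and 389 in prg-1. gck-1 at its end changed by -0.61 on the log2 scale with deposited values and by 1.08 with library totals, and vps-60, smk-1 and atg-18, next to the run at its other end, were not called. In the other cluster the non-histone F08G2.4 had 1 read over the triple libraries and 6811 reads in prg-1, with a mean of 5.39 normalised reads in wild type.

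**Figure D4:**
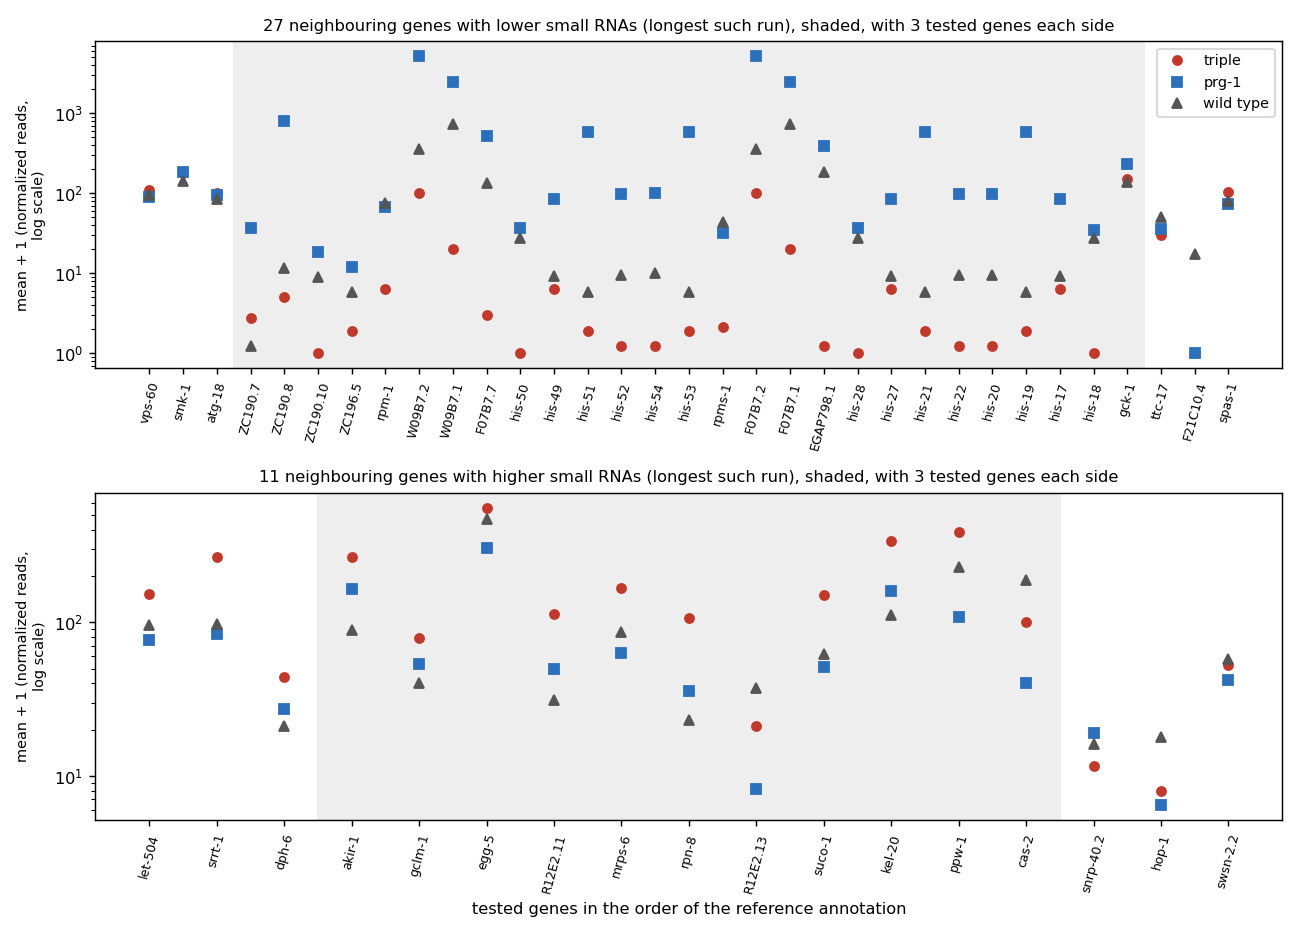
Mean small RNA level (normalised reads plus 1, log axis) of neighbouring tested genes in triple, prg-1 and wild type, for the longest run of genes lower in triple (top) and the longest run higher in triple (bottom). In the top panel prg-1 lies above triple at all 27 shaded genes. In the bottom panel triple lies above prg-1 at all 11.

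The mut class was mixed in its calls. Of 1742 tested genes 860 (49.4%) were lower and 23 higher, with a median log2 change of -1.28. Their summed level was 19400 ± 4700 normalised reads in triple, against 781000 ± 36000 in prg-1 (SD, n = 3 each), a sum set by the abundant members. With library totals 655 were lower and 296 higher, and without triple replicate 3 949 were lower and 20 higher. Under 10% of the prg-1 level was left at 691 of the 1742 (39.7%). Many of the rest were already low in prg-1, as at bath-45, fbxb-97 and xol-1, 3 genes used as readouts of piRNA silencing. bath-45 had 28.7, 27.3 and 165 normalised reads in triple, against 187, 46.4 and 40.5 in prg-1, while wild type had 7406 to 7565. The triple and prg-1 libraries overlapped, with triple replicate 3 and prg-1 replicate 1 the high ones, and none of the 3 genes was called (adjusted p 0.652 for bath-45, 0.452 for fbxb-97 and 0.641 for xol-1). Single libraries moved these values. Without triple replicate 3 the log2 change of bath-45 was -1.31 (limma adjusted p 0.0776), against -0.47 with it, and that of fbxb-97 -1.13 (0.0821), against -0.57. Without prg-1 replicate 1 that of bath-45 was 0.23 (0.848).

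The 23 higher genes of the mut class included R12E2.13 (log2 change 1.39) and cas-2 (1.33), which are named again below with their neighbours. Other gains were smaller. parn-1, which encodes the nuclease that trims piRNA ends, had 229, 258 and 200 normalised reads in triple, against 149, 121 and 127 in prg-1 and 878 to 898 in wild type. The triple libraries lay between prg-1 and wild type (log2 change 0.79 ± 0.106 SE, adjusted p 1.46e-04). bath-41, a BTB and MATH domain gene, averaged 63.1 ± 7.85 in triple and 38.8 ± 7.01 in prg-1, against 320 in wild type.

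Most genes of the ergo class were lower but kept some small RNA. The Argonaute ERGO-1 binds 26G-RNAs of duplicated genes, which in turn prompt 22G-RNAs made with the mutator proteins. Of 80 tested genes of the ergo class 65 were lower and 1 higher, with a median log2 change of -2.82 and a median of 13.2% of the prg-1 level left. The higher one was cgh-1, a germ granule helicase gene that the authors also list in the csr class, with 395, 358 and 390 normalised reads in triple, against 271, 287 and 252 in prg-1. K02E2.6 had 358, 306 and 343 normalised reads in triple, against 2981, 3207 and 3002 in prg-1 and 1155 to 1314 in wild type. Y17D7B.4 and W04B5.2 averaged 70.6 and 61 in triple, and 2628 and 1392 in prg-1. About 11% was left at K02E2.6, 2.69% at Y17D7B.4 and 4.38% at W04B5.2, with no overlap between triple and prg-1 at any of them. In the alg class 81 of 552 were higher and 88 lower, with a median of 0.04. T08B2.11, one of its lower members, averaged 10.6 in triple and 4023 in prg-1, and is also listed in the mut class.

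Gene families divided as well. Of 158 cuticle collagen genes 17 had enough reads to be tested, and a gene can pass on its level in prg-1 alone, so the count describes only these. All 17 were lower, 16 with library totals, 13 after thinning and 16 without triple replicate 3, and the median log2 change was -6.28. col-155 and col-139 had no read in the triple libraries and averaged 81.3 ± 2.73 and 77.1 ± 7.96 normalised reads in prg-1, at least 19.9-fold and 18.9-fold more than 3 reads per triple library would be worth. Of 164 tested F-box and MATH genes, which encode substrate adaptors of ubiquitin ligases, 65 were lower (39.6%) and 7 higher, with a median of -0.77. With library totals 50 were lower and 39 higher, with a median of -0.23. Over all tested genes 23.6% were lower and 10.3% higher on the deposited scale, shares to be read beside each count in this paragraph. fbxb-14 had 30.6, 41.0 and 59.9 in triple, against 3988, 4278 and 4089 in prg-1 and 4466 to 4675 in wild type. math-31 had no read in triple and averaged 386 ± 6.95 in prg-1, at least 94.4-fold more. fbxa-210 went the other way, with 110 ± 1.76 in triple and 81.0 ± 3.64 in prg-1, a call that thinning removed. Of 5 tested pals genes 1 was lower, or 2 without triple replicate 3, and pals-18 had no read in triple and 86.1 ± 11.4 in prg-1. Among 73 ribosomal protein genes 3 were higher and 6 lower, and rps-13 averaged 26.6 in triple, 1142 in prg-1 and 19.5 in wild type. In the C16C8 cluster 5 of 9 tested genes were lower, among them C16C8.16, with 1 read in triple and 49 in prg-1, and 1 was higher, C16C8.4, with 24.9 ± 4.34 in triple and 14.3 ± 4.3 in prg-1. Thinning removed both of these calls, and the call at C16C8.4 was also lost with the replicate block and without triple replicate 1 or 2 or prg-1 replicate 1 or 2 (limma adjusted p 0.076 to 0.123). In mRNA 5 of the 9 were lower in triple and 2 higher. C16C8.16 mRNA was 0 in every triple library, against 926 to 1052 normalised reads in prg-1. C16C8.14, also lower in small RNA, had mRNA of 0 in every triple library, against 148 to 157. C16C8.4 mRNA averaged 417 in triple and 399 in prg-1. The part of missing transcripts in the small RNA decreases was not tested.

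An independent set of libraries was used to sort genes by their change without PRG-1, since the prg-1 libraries of generation 1 enter the comparison itself. It held 3 libraries of WM161, prg-1(tm872) I, and 3 of wild type, both 68 h old. Of 7273 genes tested there, 2490 were higher (34.2%) and 3012 lower (41.4%) in prg-1(tm872). Of the genes called higher, 2411 were also tested in triple minus prg-1, and 622 of them were lower and 398 higher, with a median log2 change of 0.00. The share lower, 25.8%, was near the 23.6% of all tested genes and the 25.3% of genes called lower in prg-1(tm872). It differed with the size of the gain. Where the gain in prg-1(tm872) was 2-fold or more, 388 of 532 (72.9%) were lower in triple and 13 higher, with a median of -4.44. Where it was under 2-fold, 234 of 1879 (12.5%) were lower and 385 higher, with a median of 0.10. The split at 2-fold was made after seeing the data. The genes with gains of 2-fold or more took 3.15% ± 0.0808 of the total in triple and 42.6% ± 0.805 in prg-1 (SD, n = 3 each), against 8.82% ± 0.0241 in wild type.

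Class sorted these genes further. Of 305 mut genes called higher in prg-1(tm872), 278 were lower in triple and 2 higher, with a median log2 change of -7.07. Of 81 mut genes not called there, 72 were lower. Of 1351 mut genes called lower in prg-1(tm872), 506 (37.5%) were lower again in triple and 21 higher, with a median of -0.85. Of 1757 csr genes called higher in prg-1(tm872), 142 were lower in triple and 386 higher, with a median of 0.12. In the histone class 47 of 47 genes called higher in prg-1(tm872) were lower in triple.

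**Figure D5:**
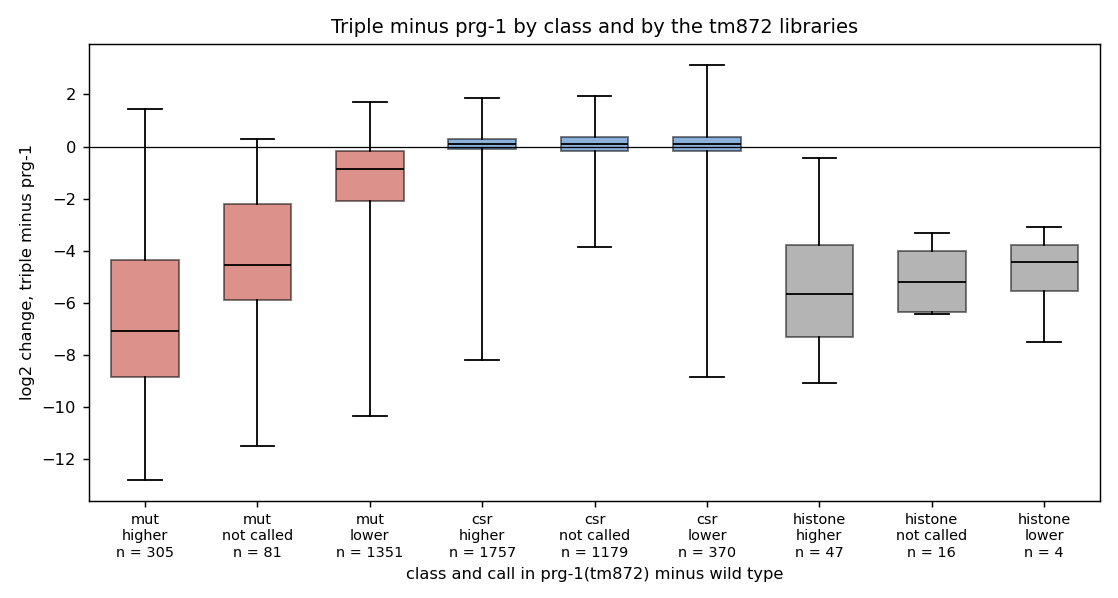
Log2 change of triple minus prg-1 in generation 1 for tested genes of 3 authors' classes, sorted by their call in prg-1(tm872) minus wild type, with n under each box. Boxes span the quartiles with the median as a line, and whiskers reach the lowest and highest gene. The mut genes that prg-1(tm872) raised have the lowest median, -7.07, and csr genes sit near 0 whatever their call.

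Named gains in prg-1(tm872) did not all appear in the n4357 strain. nex-2 and abhd-3.1, an abhydrolase gene, were higher in prg-1(tm872) by 10.20 and 8.87 on the log2 scale. abhd-3.1 had 0.652, 5.47 and 4.13 normalised reads in triple, against 3346, 3833 and 3530 in prg-1 and 5.57 to 6.73 in wild type. F13D12.10 was higher by 8.31 in prg-1(tm872) but averaged 12.6 ± 5.88 in triple, 19.2 ± 7.28 in prg-1 and 13.6 in wild type of generation 1, with no call in triple minus prg-1. C07G1.7, C48B6.10, C48B6.9, Y39F10C.2 and ZK1098.11 were among the 8 largest gains there, averaged 0.708 (C48B6.9) to 7.0 (Y39F10C.2) normalised reads in prg-1(n4357) and had too few reads to be tested in triple minus prg-1. In the opposite sense pho-9 and crtc-1, which lost nearly all their small RNA in triple, were not called in prg-1(tm872) (log2 change -0.21 and -0.31). Y23H5A.2 and T08B2.11 were even lower than wild type in prg-1(tm872) (-1.3 and -3.42), while prg-1(n4357) exceeded wild type by 7.78 and 5.9. inos-1 and ceh-44 rose by 0.51 and 0.85 in prg-1(tm872), against 6.05 and 9.11 in prg-1(n4357). sea-2 rose in both, by 3.8 and 8.33. What set the 2 alleles apart was not tested.

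Increases in triple were small in fold on the deposited scale. Among genes with a mean of at least 100 normalised reads, the 10 largest increases lay between 1.41 and 1.93 on the log2 scale, and between 3.08 and 3.60 with library totals. ppw-1 and sago-2, both genes of secondary Argonautes, were in that list. ppw-1 had 386, 396 and 380 normalised reads in triple and averaged 107 ± 4.27 in prg-1 (n = 3). The mut-14 smut-1 libraries had 211 and 177, and wild type 207 to 259. The triple libraries were above every other generation 1 library (log2 change triple minus prg-1 1.84 ± 0.0924 SE, adjusted p 4.52e-08). sago-2 had 281, 299 and 297 in triple, against 64.7, 93.8 and 82.0 in prg-1 and 92.7 to 113 in wild type (1.87 ± 0.132 SE, adjusted p 6.81e-07). hrde-1, the nuclear WAGO of germline inheritance, was higher by 0.36, with 956, 986 and 977 in triple and 814, 702 and 769 in prg-1. Of 18 tested Argonaute genes 4 were higher (22.2%) and 2 lower (11.1%), against 10.3% and 23.6% of all tested genes. The lower ones, sago-1 and alg-1, rested on 8 reads and 1 read in triple, with sago-1 not called with library totals and alg-1 not called by edgeR or DESeq2. With library totals 15 of the 18 were higher, against 64.5% of all tested genes.

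Other increases were lsl-1, a zinc finger gene (180 ± 13.5 in triple and 47.5 ± 13.6 in prg-1), srrt-1, the homologue of the RNA-processing factor ARS2 (264, 279 and 256 in triple, and 82.8, 87.3 and 77.1 in prg-1), nse-1, a subunit of the SMC5/6 complex (109 ± 4.35 in triple and 35.9 ± 3.32 in prg-1), and cyb-2.2, a B-type cyclin gene (352 ± 22.8 in triple and 130 ± 18.9 in prg-1). F28F8.7 averaged 134 ± 2.83 in triple, 40.3 ± 7.44 in prg-1 and 145 in wild type. Among 26 genes for the amplification and mutator factors themselves, 6 were higher (23.1%) and 2 lower (7.69%), against 10.3% and 23.6% of all tested genes. The largest decrease was at mut-14, one of the deleted genes, with 6 reads in triple and 1359 in prg-1. dcr-1, the Dicer gene, and znfx-1, a germ granule helicase gene, were higher by 0.52 and 0.40, and mut-16, the scaffold of the mutator compartment, changed by -0.31 with deposited values and by 1.39 with library totals. The call at mut-16 was lost without triple replicate 1 (limma adjusted p 0.0618) or prg-1 replicate 3 (0.054). Of 17 germ granule genes 4 were higher (23.5%) and 3 lower (17.6%). ifet-1, a translational repressor gene, was higher by 0.84 and meg-4 changed by -3.34, while mip-1 changed by -0.50 with deposited values and by 1.19 with library totals. Of 18 genes of nuclear RNAi and heterochromatin 4 were higher (22.2%), among them mes-2, a subunit of the PRC2 complex (0.75), and lin-65 was lower.

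Some of the gains were at neighbouring genes. The longest run of consecutive tested genes called higher held 11 genes and ended with ppw-1 and cas-2. It began with akir-1, gclm-1 and egg-5 and went on with R12E2.11, mrps-6, rpn-8, R12E2.13, suco-1 and kel-20, at log2 changes of 0.56 to 1.84. snrp-40.2, hop-1 and swsn-2.2, the next genes beyond cas-2, were not called. At the other end dph-6 was not called (adjusted p 0.0875), and beyond it srrt-1, let-504 and cyb-2.2 were higher. In mRNA 8 of the 11 were also higher in triple, from R12E2.11 to cas-2, by 0.20 to 0.80 on the log2 scale, while akir-1 was lower (log2 change -0.13, limma adjusted p 0.0472) and gclm-1 and egg-5 were not called. rpn-8, a proteasome lid gene, had 113, 109 and 95.0 normalised small RNA reads in triple, against 29.5, 34.4 and 40.5 in prg-1 and 20.2 to 23.8 in wild type.

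Whether the change was the same with PRG-1 present was tested as a difference of differences, the triple minus prg-1 change less the mut-14 smut-1 minus wild type change. It was positive at 2299 of 7418 genes (31.0%) and negative at 1510 (20.4%). Thinning gave 1397 and 667, and library totals gave 3143 and 558. A gene with few small RNAs in prg-1 has little left to lose in triple, so a positive difference can follow from that floor. In the same way a gene with few in wild type has little to lose in mut-14 smut-1. Of the 2299 positive genes 2024 had been called lower in prg-1(tm872), and of the 1510 negative ones 1154 had been called higher. With PRG-1 present, small RNAs of mut-14 smut-1 were lower than in wild type at 3476 genes (46.9%) and higher at 1621 (21.9%). Both effects enter this difference, and the mut-14 smut-1 group has only 2 libraries. Its strain alone also carried unc-119(ed3), so a part of that allele in the difference cannot be told apart from that of PRG-1. Among genes with a mean of at least 100 normalised reads, the largest positive differences were at genes with few small RNAs in prg-1. F39F10.2 had 1.3, 0 and 28.9 normalised reads in triple, against 43.1, 7.43 and 1.98 in prg-1, while mut-14 smut-1 had 0 and 2.41 and wild type 1960 to 2032, a difference of 8.75. Triple replicate 3 again was the high one, and without it triple minus prg-1 was -2.77 at this gene (adjusted p 0.0485), against -1.34 with it. C33D9.6 (8.41), Y53F4B.17 (8.37), F13H10.5 (8.36) and Y19D2B.2 (8.23) followed. At Y53F4B.17 the triple minus prg-1 change was -1.81 (adjusted p 0.259) with all libraries and -3.29 (adjusted p 0.0064) without triple replicate 3. At C33D9.6 it was 1.25 (adjusted p 0.116), and 1.82 (0.0227) without prg-1 replicate 1 or 1.80 (0.0276) without triple replicate 1.

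The largest negative differences were at genes with few small RNAs in wild type. nex-2 led them at -12.73, with 5.86, 15 and 10.3 normalised reads in triple, against 14888, 17255 and 15998 in prg-1, and 116 and 8.83 in mut-14 smut-1, against 5.06 to 8.97 in wild type. The 2 mut-14 smut-1 libraries differed widely here, replicate 1 being the higher. rabi-1 (-12.24), T28B8.1 (-12.13), F08G2.4 (-11.82) and alh-7 (-11.45) followed. At 56 of the 64 core histone genes the difference was negative and at none positive.

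The same strains at generation 50, with libraries of their own of 4417660 to 9804876 reads, gave a second reading. There 1869 of 10968 entries were lower in triple than in prg-1 (17.0%) and 1247 higher (11.4%). The entries include piRNAs, miRNAs and transposons beside genes. Genes were matched between generations only through the authors' mut, csr, histone and ribosomal RNA classes. Of the 5082 genes matched and tested at both, 1145 were lower at generation 50 (22.5%) and 1035 higher (20.4%). Of the 1748 genes lower at generation 1, 1129 were matched and tested at generation 50, and 848 were lower there (75.1%) and 10 higher. These 848 were 74.1% of the 1145 shared genes lower at generation 50. Of the 767 genes higher at generation 1, 632 were matched and tested, of which 458 were higher (72.5%) and 5 lower. The 458 made up 44.3% of the 1035 higher at generation 50. When the generation 50 libraries were scaled to their miRNA totals, an alternative added after seeing the data, 3030 entries were lower and 50 higher, 1033 genes were lower at both generations and 21 higher at both. Across the 5082 genes tested in both, Pearson's r of the log2 changes was 0.873 and Spearman's rho 0.757. Genes are not independent replicates, and low genes of both tables share the pull of the pseudocount.

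Some decreases had a smaller estimate at generation 50. F15D4.5 changed by -5.36 ± 0.11 SE on the log2 scale at generation 1. At generation 50 it changed by -2.72 ± 0.99 SE and was not called (limma adjusted p 0.0627). Y20F4.4 changed by -5.82 ± 0.0887 SE and -3.60 ± 1.07 SE. The generation 50 libraries were labelled as lines of each strain, and these 2 estimates were far less precise there. The difference between generations was not tested. All 54 histone-class genes tested at both were lower at generation 50, with a median of -6.18. ppw-1 and sago-2 were higher again, by 2.11 and 2.13. Among genes that mut-14 smut-1 lowered at generation 50 with PRG-1 present (26.0% of entries, limma), 887 of 1991 were lower in triple at generation 1 and 58 higher.

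mRNA of the same genotypes and age was set beside the small RNAs. Of 14555 genes tested in mRNA, 3746 were higher in triple (25.7%) and 4119 lower (28.3%). Among genes with lower small RNAs 466 of 1493 tested (31.2%) had more mRNA and 351 less, with a median log2 change of 0.08. Among genes with higher small RNAs 58 of 764 (7.59%) had more and 544 less, with a median of -0.24. All 6970 genes tested in both had a median of -0.20, with 913 higher and 3671 lower.

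F15D4.5 mRNA averaged 5938 ± 452 normalised reads in triple and 98.6 ± 16.2 in prg-1 (SD, n = 3 each, log2 change 5.91, limma adjusted p 1.2e-17), where its small RNAs were among the most abundant. F07B7.1, in the histone cluster, averaged 882 ± 75.4 in triple and 4.61 ± 1.1 in prg-1, and F07B7.2 2710 ± 151 and 14.8 ± 4.87, with the same values at W09B7.1 and W09B7.2, 2 entries named here after their values were seen. ZC15.3 averaged 953 ± 61 in triple and 4.44 ± 4.54 in prg-1, and C27C7.1 1175 ± 56.1 and 16.7 ± 3.74. The 2 groups were far apart at each of these genes. Rises of 3 or more on the log2 scale were also found at F16B4.6 (6.96), Y102A5C.36 (4.80), ZK262.9 (4.16), C55C3.3 (3.61), fbxb-14 (4.79) and nssp-7 (3.07).

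At some other genes with large small RNA decreases mRNA did not rise. sea-2 mRNA averaged 162 ± 36.1 in triple and 171 ± 38.7 in prg-1, and dmd-9 mRNA 35.4 ± 4.2 and 35.4 ± 3.28. ceh-44 mRNA averaged 1712 ± 77.3 and 1847 ± 27.8, and was called lower (log2 change -0.11, limma adjusted p 0.0434). Among the other genes most abundant in prg-1, lsy-12 was not called in mRNA (-0.07). mRNA was called higher at Y23H5A.2 (1.21), inos-1 (1.13), alh-7 (0.78), Y20F4.4 (0.64), nex-2 (0.57) and sqst-1 (0.25). Of the core histone genes 47 of 62 tested in mRNA were higher and none lower, with a median log2 change of 0.56, although copies share reads. Of the 14 collagen genes tested in both, 12 had more mRNA and none less, with a median of 1.52.

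Tissue markers moved in the same mRNA libraries. All 35 tested sperm genes were higher in triple, with a summed level of 27414 to 33355 normalised reads in triple and 8089 to 8912 in prg-1, while all 8 oocyte genes were lower, with sums of 63659 to 72316 and 87073 to 92380. Of 8 germline genes 7 were lower, of 8 intestinal genes 5 were lower and 1 higher, and 1 of 4 muscle genes was higher. Of 4 neuronal genes 2 were higher and 1 lower. No listed marker was at 0 in all 6 libraries. In whole animals fewer cells of a type and less RNA per cell cannot be told apart, and the part of these shifts in the small RNA and mRNA changes was not tested. F28F8.7 had more of both, with mean mRNA of 2343 in triple and 291 in prg-1 (log2 change 3.00).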

How the data were processed

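Per the labels' protocols, small RNAs of 16 to 30 nt were selected on gels, treated with polyphosphatase and made into libraries. mRNA libraries used rRNA-depleted RNA over 200 nt. The authors deposited each table as a signal per gene, reads scaled by a factor for each library; the sources used here do not name an aligner, counter or genome build. In the small RNA files every value (100.0%) was a whole multiple of 1 read within 0.01 reads, so reads were recovered for depth, thinning and count tests. Because the deposited values were normalised, the main test was limma 3.58.1 on log2(value + 1) over all groups of a table, on genes at 10 or more in at least the number of libraries of the smallest group, with Benjamini-Hochberg adjusted p under 0.05. Fold changes of low genes are understated on this scale. edgeR 4.0.16, on recovered reads, called 1433 genes higher and 1613 lower in triple minus prg-1, and DESeq2 1.42.0 was another alternative. Scripts were tested on simulated data.

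The comparison, its members and the gene lists were chosen with earlier results of these data known. Named genes are a selection from these: the mutated genes and silencing readouts, the 10 largest changes each way at a mean of 100 or more, the 10 most abundant genes per genotype, the 2 smallest p each way per list, the largest differences of mutator effects, the 8 largest gains in prg-1(tm872), and the 8 with the largest opposite small RNA and mRNA changes. Genes of the neighbour runs were named beside these after their values were seen. Names and gene order came from RefSeq's table, of which no coordinates were used. Sequences, biotypes and chromosomes were not analysed here. Of the generation 50 entries, 41 genes listed in 2 of the mut, csr, histone and ribosomal RNA classes were left out of joins. Genes of the alg or ergo class entered joins only where they were also in one of these classes.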

Additional observations from a re-analysis of the deposited data

Results flagged for a closer look

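The difference of differences (limma, adjusted p under 0.05) was called at 2299 genes in the positive and 1510 in the negative direction. Genes with few small RNAs in prg-1 or in wild type have little to lose there. These calls alone therefore do not show that the helicases act differently without PRG-1. The largest negative differences among genes at a mean of 100 or more were -12.73 at nex-2, -12.24 at rabi-1, -12.13 at T28B8.1, -11.82 at F08G2.4 and -11.45 at alh-7 on the log2 scale. The largest positive ones were 8.75 at F39F10.2, 8.41 at C33D9.6, 8.37 at Y53F4B.17, 8.36 at F13H10.5 and 8.23 at Y19D2B.2. Several of these genes had few or no reads in a group, so the size of their differences depends on the pseudocount of 1. unc-119(ed3), carried by the mut-14 smut-1 strain alone, enters these differences too.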

How the results depend on the processing

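The counts of triple minus prg-1 depended on scaling and depth. Of 2515 calls in all, scaling to library totals gave 5914 and thinning 1432. The 767 higher calls became 1334 with TMM scaling, 1433 with edgeR, 4784 with library totals and 316 after thinning. The 1748 lower calls became 1137 with a filter of 50, which tests fewer genes, 1130 with library totals and 1116 after thinning. The difference of mutator effects gave 2064 calls after thinning, and prg-1 minus wild type 3274 with a filter of 50. mip-1 and mut-16 turned to 1.19 and 1.39 with library totals. Where no cause is named, the cause was not tested.

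Leaving out 1 library at a time gave 2284 to 2487 calls in triple minus prg-1, 629 to 663 higher and 1624 to 1824 lower. It gave 3362 to 3916 calls for the difference of mutator effects, 4517 to 4617 for prg-1 minus wild type, 4566 to 4798 for mut-14 smut-1 minus wild type, 2789 to 3073 and 7712 to 8745 for triple minus prg-1 and mut-14 smut-1 minus wild type at generation 50, 5167 to 5325 for prg-1(tm872), and 6854 to 7849 for mRNA. The class shares moved little, from 52.8 to 53.7 percentage points for csr, -44.9 to -44.1 for mut, -2.53 to -2.48 for histone, -2.89 to -2.82 for ergo and 4.66 to 4.8 for alg.

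With the replicate number as a block, 696 genes were higher and 1696 lower. Same-numbered libraries of triple and prg-1 correlated at -0.218, 0.085 and -0.226, so the numbers did not pair them. Thinning, miRNA totals and the 2-fold split were chosen after seeing the data. Where the triple libraries held no read, depth allows only a lower bound on the change.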
